A study of Mus musculus with 6 samples.

Results

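The proteasome genes of HL-1 cells were taken by their symbols: every mouse gene named Psma to Psmg followed by a digit, with pseudogenes left out. Of the 32739 genes in the deposited count files, 50 met that rule. They comprise the 14 constitutive subunits of the 20S core, 2 tissue-specific core subunits, 3 immunoproteasome subunits, 17 subunits of the 19S regulatory particle, 7 assembly chaperones, 5 activator genes, the inhibitor gene Psmf1, and Psmc3ip. The last shares only its name with the family, since it encodes a meiotic recombination factor; without it there were 49.

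The proteasome is the protease that degrades most ubiquitin-tagged proteins in the cell. Its barrel-shaped 20S core is built of α rings, which gate the entry, and β rings, of which the subunits β1 (Psmb6), β2 (Psmb7) and β5 (Psmb5) cut peptide bonds. The 19S particle docks on the α ring, binds the ubiquitin chain, unfolds the substrate with a ring of ATPases and removes the chain with a deubiquitinase of its lid. Interferon and inflammatory signals replace the catalytic subunits by Psmb9, Psmb10 and Psmb8, which gives the immunoproteasome. In heart muscle the proteasome takes part in the turnover of sarcomere proteins and in the removal of oxidised proteins.

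HL-1 is a mouse cell line derived from atrial cardiomyocytes. All 6 samples were exposed to hypoxia for 6 h and then reoxygenated for 1 h. Vehicle was given to 3 of them and 5 µM BRL, a β3-adrenergic receptor agonist according to the series design, to the other 3, so every comparison here is between groups that were both reoxygenated; cells kept in normal oxygen are not analysed here. The labels do not say whether replicates came from separate cultures, so p-values measure no more than the spread among these libraries, part of which may be technical.

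Total expected counts were 4440168, 4872948 and 5060049 for vehicle and 6812810, 7516242 and 8332472 for BRL. The depth did not overlap between the groups, so depth and treatment cannot be told apart by design. BRL replicate 1 stood apart: 5.03% of its counts came from mitochondrially encoded genes against 16.5% to 21.9% in the other 5 libraries, and its chi-square per degree of freedom against BRL replicates 2 and 3 was 89.2 and 76.8, against 4.20 between those. Results are therefore given with and without it. The cell type on the label was checked against markers: 18 cardiomyocyte markers summed to between 10985 and 11204 TPM (a level per transcript length, scaled to the same total in each library) in vehicle libraries and between 8931 and 9444 in BRL libraries. Of the 17 tested, 3 (Myh6, Gja1 and Pln) fell and 0 rose, where 1.79% of all genes fell. Fitted values were below 0 for 13 of them and above 0 for 4. Without BRL replicate 1, 8 fell and 4 rose (Gata4, Gja5, Nkx2-5 and Tnni3), where 10.9% of all genes fell and 10.3% rose. Smooth muscle markers summed to between 3146 and 3289 in vehicle and between 1710 and 2527 in BRL libraries. Of the 7 tested, edgeR's quasi-likelihood test called 0, where 1.79% of all genes fell, and all 7 fitted values were below 0. Without BRL replicate 1, 4 fell, where 10.9% of all genes fell. The highest was Acta2, at 2651 ± 176 CPM in vehicle and 1677 ± 574 in BRL libraries (SD, n = 3). Cnn1 was at 4.46 and 3.73 CPM, and Myh11, below the filter, at 0.212 and 0.223. Which cells expressed these genes was not tested. Markers of other cell types were low; their TPM sums were higher in BRL libraries, while single markers went either way. Fibroblast markers summed to between 1.16 and 1.71 TPM in vehicle and between 2.00 and 2.53 in BRL libraries, with Dcn, Lum and Tcf21 at 0; in CPM, Col1a1, the only one tested, was at 3.96 ± 0.52 and 2.92 ± 0.60 (SD, n = 3; log2 -0.43, edgeR adjusted p = 0.414). Leukocyte markers summed to between 5.65 and 7.06 TPM in vehicle and between 8.86 and 11.02 in BRL libraries, with Ptprc, Lyz2, Adgre1 and Csf1r at 0. Endothelial markers summed to between 4.20 and 4.82 TPM in vehicle and between 11.4 and 16.05 in BRL libraries, with Emcn at 0. Kdr rose, from 6.19 ± 2.37 to 44.6 ± 8.2 CPM (SD, n = 3), while the other 2 tested endothelial markers, Pecam1 and Vwf, were at -0.63 and -0.14 on the log2 scale (edgeR adjusted p = 0.437 and 0.903), and Tek, Cdh5, Tie1 and Flt1, below the filter, had lower mean CPM in BRL libraries. The part of these marker shifts in the proteasome values was not tested. In RNA from whole cultures, fewer cells of a type and less RNA per cell cannot be told apart.

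Promoter sequence is shown first for the 3 genes that rose with BRL (Psmb5, Psmc4 and Psmc5) and for Psmb6, another catalytic subunit. Each is the 250 bases before the start of the gene in RefSeq (build GRCm38.p6), 5′ to 3′ on the gene's strand. Capitals mark the core of the antioxidant response element, TGACNNNGC, the kind of site bound by NFE2L1 and NFE2L2, the factors known to raise proteasome genes when proteasome activity falls or oxidants build up. The windows lie at chr14:54617996-54618245 on the minus strand (Psmb5), chr11:70525107-70525356 on the plus strand (Psmb6), chr7:28050093-28050342 on the minus strand (Psmc4) and chr11:106255935-106256184 on the plus strand (Psmc5).
Psmb5: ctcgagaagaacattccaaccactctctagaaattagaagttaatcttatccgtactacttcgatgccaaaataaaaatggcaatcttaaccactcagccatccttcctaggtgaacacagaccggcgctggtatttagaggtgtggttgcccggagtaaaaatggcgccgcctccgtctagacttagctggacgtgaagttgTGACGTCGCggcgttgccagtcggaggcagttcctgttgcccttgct
Psmb6: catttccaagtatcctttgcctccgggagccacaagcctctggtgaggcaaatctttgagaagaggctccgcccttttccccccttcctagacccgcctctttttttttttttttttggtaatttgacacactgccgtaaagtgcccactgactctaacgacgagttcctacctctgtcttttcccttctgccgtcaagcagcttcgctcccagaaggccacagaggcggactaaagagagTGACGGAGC
Psmc4: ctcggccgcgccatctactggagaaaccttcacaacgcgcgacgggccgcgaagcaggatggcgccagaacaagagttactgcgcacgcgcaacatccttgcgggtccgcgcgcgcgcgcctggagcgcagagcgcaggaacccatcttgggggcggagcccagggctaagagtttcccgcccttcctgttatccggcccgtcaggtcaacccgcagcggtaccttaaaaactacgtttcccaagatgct
Psmc5: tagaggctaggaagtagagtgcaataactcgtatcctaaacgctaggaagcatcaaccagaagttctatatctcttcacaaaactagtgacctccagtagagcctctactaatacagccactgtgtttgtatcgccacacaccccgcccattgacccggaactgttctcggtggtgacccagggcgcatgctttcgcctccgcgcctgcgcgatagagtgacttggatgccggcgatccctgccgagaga

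The element began 47 bases before the start in Psmb5 and 9 bases before it in Psmb6, and was not found in the windows of Psmc4 and Psmc5. RefSeq windows of 300 bases (250 before to 50 after the start) were at hand for 42 of the 50 genes. TGACNNNGC was searched on both strands and occurred in 6 of the 42 windows (14.3%), namely those of Psmb5, Psmb6, Psmd9, Psmd12, Psmc6 and Psme4, against 14.0% of 27025 genes. The CCAAT box, the letters CCAAT on either strand, occurred in 15 of 42 (35.7%) against 41.1%. The core of the interferon-stimulated response element, GAAA, then any 2 bases, then GAAA, on either strand, occurred in 5 of 42 (11.9%) against 3.99%, in Psmb3, Psmd4, Psmd9, Psmg4 and Psme1. None of the 3 motifs overlaps another by its letters in the 4 sequences printed. A match describes letters in a window, and no factor's binding was measured.

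The proteasome genes lay mostly a little higher with BRL, and few of them passed the test singly. Of the 50, 47 were tested; edgeR's quasi-likelihood test, adjusted by Benjamini-Hochberg over all 12046 genes, called 3 of them higher (6.38%) and 0 lower, where 1.01% of all genes rose and 1.79% fell. At an unadjusted p under 0.05, 26 of the 47 were higher and 0 were lower, against 11.6% of all genes higher. The fitted log2 fold change was above 0 in 45 of 47, against 50.7% of all genes, and its median was 0.28 against 0.01 over all genes. Every BRL library lay above every vehicle library, in CPM (counts scaled to a common library total, with TMM library factors), for 31 of 47, against 16.0% of all genes, and below for 0 of 47, against 15.5%. DESeq2 called 5 members higher and 0 lower, where 2.04% of all genes rose and 2.96% fell. The edgeR exact test called 7 higher and 0 lower, where 3.47% rose and 4.38% fell.

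Library by library, the median of the 47 members relative to the vehicle mean was 0.40 on the log2 scale in BRL replicate 1, 0.20 in replicate 2 and 0.17 in replicate 3. The vehicle medians were 0.01, 0.00 and -0.02. BRL replicate 1 exceeded both other BRL libraries for 38 members and lay below both for 7. Without BRL replicate 1, 16 of 47 rose (34.0%) and 1 fell, where 10.3% of all genes rose and 10.9% fell; 44 of 47 lay above 0, against 50.3% of all genes, with a median of 0.21. When the mitochondrially encoded genes were left out of the counts, the median was 0.29, and with all libraries thinned to the lowest total it was 0.26. The call of 3 genes depended on the libraries fitted. All 3 stayed called without BRL replicate 1. Without any 1 of vehicle replicates 1, 2 and 3, 0 members were called, and without BRL replicate 2 or 3, 1 member, Psmb5. Calls over all genes were fewer there as well: 22, 20 and 17 genes rose without vehicle replicates 1, 2 and 3, and 43 and 45 without BRL replicates 2 and 3.

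**Figure D1:**
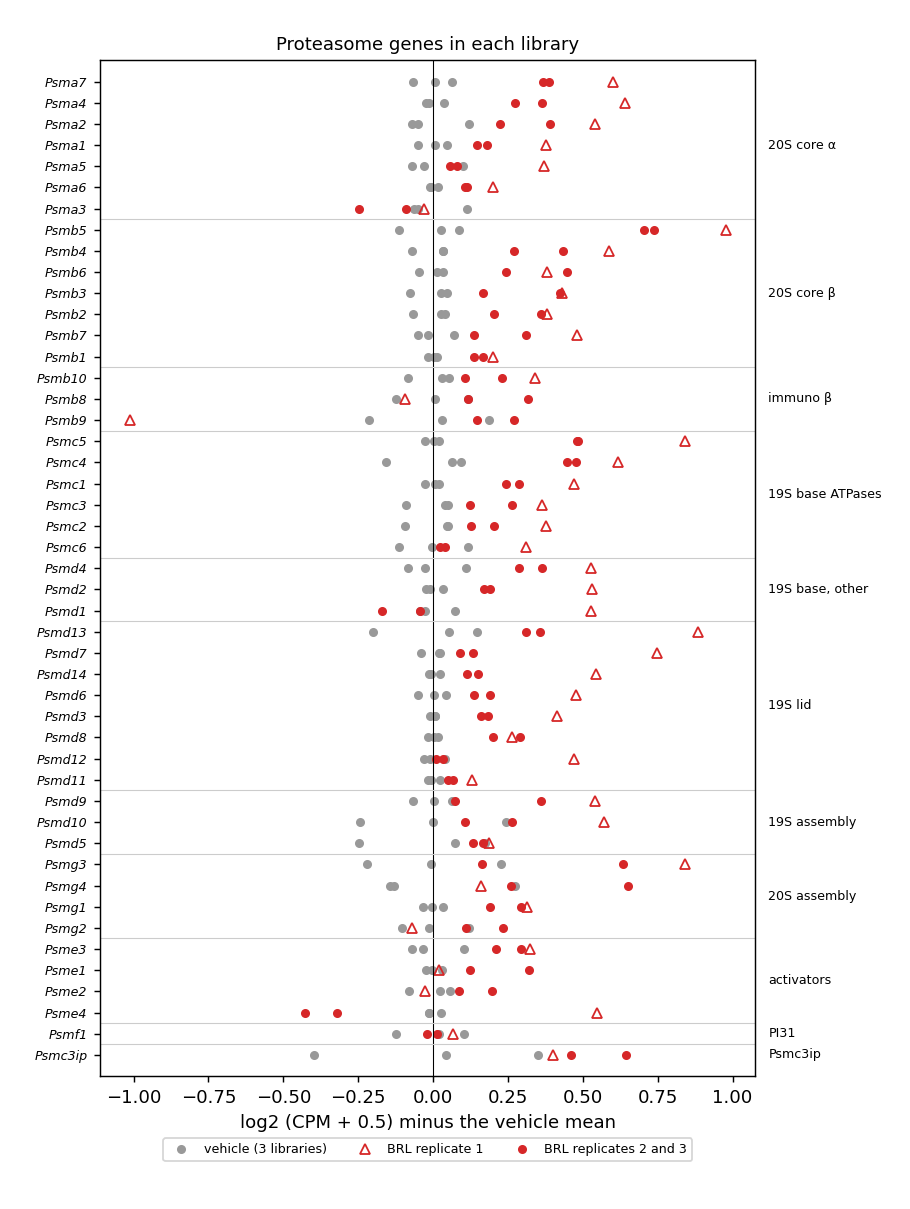
Level of each of the 47 tested proteasome genes in each library, as log2 of CPM plus 0.5 minus the mean of the 3 vehicle libraries; genes are grouped by role, grey points are vehicle libraries, red points BRL replicates 2 and 3, and open triangles BRL replicate 1. For 31 genes all 3 red symbols lie to the right of all 3 grey points; Psmb9 and Psme4 are the genes where BRL replicate 1 lies far from the other BRL libraries, to the left and to the right.

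The 7 constitutive α subunits, which form the outer rings of the core, had a median log2 fold change of 0.24. None of them passed edgeR's quasi-likelihood test, and 4 were higher at an unadjusted p under 0.05, against 11.6% of all genes. Every BRL library lay above every vehicle library for 5, against 16.0% of all genes. DESeq2 called Psma7 and the exact test Psma4 and Psma7. Psma7 measured 112, 107 and 102 CPM in vehicle and 162, 140 and 138 CPM in BRL libraries. Each BRL library was above each vehicle library, and the log2 fold change was 0.46 ± 0.10 (SE), with an edgeR adjusted p of 0.0562. Psma3 was the one α subunit with a fitted value below 0. It measured 98, 86.6 and 87.4 CPM in vehicle and 88.7, 76.2 and 84.9 CPM in BRL libraries, groups that overlap (-0.12 ± 0.10, edgeR adjusted p = 0.528). Its reads are shared with processed pseudogenes: Gm13835 matches it over 685 bases and was assigned 0, 6.23 and 22.7 counts in vehicle and 94.2, 98.4 and 71.0 in BRL libraries. With Gm13835 and Gm5406 summed into Psma3, the value was 0.04 ± 0.10 (edgeR adjusted p = 0.867), so its sign depends on how reads were divided. Without BRL replicate 1, edgeR called Psma2, Psma4 and Psma7 higher, where 10.3% of all genes rose.

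The 7 constitutive β subunits had a median log2 fold change of 0.35. Every BRL library lay above every vehicle library for all 7, against 16.0% of all genes. Psmb5 (ENSMUSG00000022193), the β5 subunit, whose chymotrypsin-like activity is the main target of proteasome inhibitor drugs, had the largest fold change of all members. It measured 27.4, 26.2 and 23.7 CPM in vehicle and 51.1, 42.2 and 43.3 CPM in BRL libraries. All 3 BRL libraries were far above the vehicle range, with BRL replicate 1 the highest. The gene rose 1.77-fold (log2 0.82 ± 0.12, edgeR adjusted p = 0.0129), and without BRL replicate 1 by 0.74 ± 0.10 (edgeR adjusted p = 0.000222). The edgeR adjusted p was 0.0718, 0.0902 and 0.115 without vehicle replicates 1, 2 and 3. The gene was called in 17 of the 20 alternative settings. In an annotation later than that of the counts, its exons overlap Mir686 on the same strand, so a read in the overlap could come from either. Its counts were whole in every library, so no division of its reads among loci was seen.

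The other catalytic β subunits had smaller fitted values and did not pass with all 6 libraries. Psmb6, the β1 subunit, which cuts after acidic residues, measured 63.0, 64 and 60.4 CPM in vehicle and 81.4, 85.3 and 74.0 CPM in BRL libraries. BRL replicate 2, not replicate 1, was its highest library, and the groups were apart (0.36 ± 0.10, edgeR adjusted p = 0.0864; 0.35 and 0.0120 without BRL replicate 1). Psmb7, the β2 subunit, which cuts after basic residues, measured 73.5, 79.9 and 75.2 CPM in vehicle and 106, 94.6 and 83.8 CPM in BRL libraries. It did not pass with or without BRL replicate 1 (0.32 ± 0.11, edgeR adjusted p = 0.155; 0.23 and 0.0673 without it). The 4 structural β subunits Psmb1, Psmb2, Psmb3 and Psmb4 had log2 fold changes from 0.17 to 0.44; Psmb4, at 0.44, was called by DESeq2 and by the exact test. Without BRL replicate 1, edgeR called 5 of the 7 β genes higher, namely Psmb2, Psmb3, Psmb4, Psmb5 and Psmb6, where 10.3% of all genes rose.

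**Figure D2:**
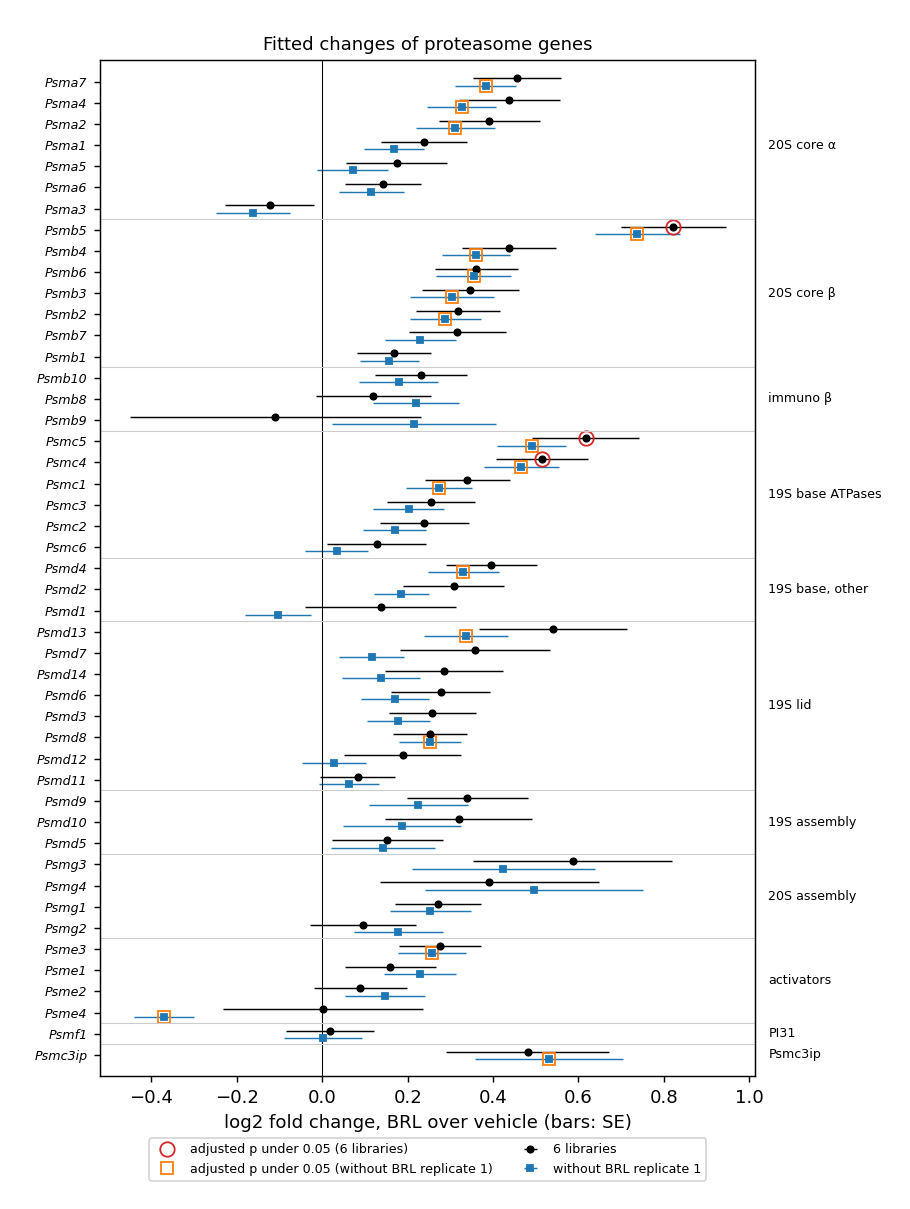
Fitted log2 fold change of BRL over vehicle for the 47 tested genes, with bars of 1 standard error, from all 6 libraries (black circles) and without BRL replicate 1 (blue squares); red rings and orange boxes mark an edgeR adjusted p under 0.05. With 6 libraries Psmb5, Psmc5 and Psmc4 are ringed; without BRL replicate 1, 17 genes are boxed, of which only Psme4 lies left of 0.

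The immunoproteasome subunits did not pass the test, and none had an unadjusted p under 0.05 in edgeR's quasi-likelihood test, DESeq2, limma-voom or the exact test. Psmb8, the inducible β5 counterpart, measured 35.7, 39.0 and 42.2 CPM in vehicle and 36.4, 48.6 and 42.2 CPM in BRL libraries. The groups overlapped (0.12 ± 0.13, edgeR adjusted p = 0.640). Psmb10, the inducible β2 counterpart, measured 40.6, 39.9 and 36.9 CPM in vehicle and 49.6, 42.1 and 45.9 CPM in BRL libraries, with the groups apart (0.23 ± 0.11, edgeR adjusted p = 0.249). Psmb9, the inducible β1 counterpart, measured 8.97, 10.1 and 7.50 CPM in vehicle and 4.10, 10.7 and 9.77 CPM in BRL libraries. BRL replicate 1 was its lowest library and the other BRL libraries lay near the top of the vehicle range (-0.11 ± 0.34, edgeR adjusted p = 0.881). Without BRL replicate 1 the median of the 3 genes was 0.21, and edgeR called 0, with 1 at an unadjusted p under 0.05. The median of all tested members was also 0.21 there, with 0.17 for the constitutive α and 0.30 for the constitutive β subunits. With all 6 libraries the 3 genes had a median of 0.12, against 0.28 for all tested members.

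Psmb9 counts are the least certain of the members. The files hold its transcripts in 2 gene models, which were summed. ENSMUSG00000024337 was assigned 6.12, 41.2 and 3.65 counts in vehicle and 31.0, 55.7 and 63.5 in BRL libraries, while ENSMUSG00000092299 was assigned 34.0, 7.16 and 33.6 in vehicle and 0.240, 20.7 and 16.9 in BRL libraries. Vehicle replicate 2 was high in the first model and low in the second, and vehicle replicates 1 and 3 were the reverse. Taken alone, the models had log2 fold changes of 0.86 ± 0.68 and -1.66 ± 0.84 (edgeR adjusted p = 0.492 and 0.282). Other genes of antigen processing were tested in a list of 11: edgeR's quasi-likelihood test called 0 higher and 0 lower, with 1 higher and 0 lower at an unadjusted p under 0.05, and DESeq2 and the exact test called 0. Tap2, a subunit of the transporter that carries proteasome-made peptides into the endoplasmic reticulum, had the smallest p, with 32.1, 33.8 and 34.9 CPM in vehicle and 40.8, 37.59 and 42.5 CPM in BRL libraries (0.26 ± 0.10, edgeR adjusted p = 0.188). The list's median was 0.08. Without BRL replicate 1 edgeR called 3 of the 11 higher, namely H2-D1, Tap1 and Tapbp, where 10.3% of all genes rose.

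Levels of different subunits were compared per length, in TPM, taken from the deposited RSEM fraction. The 14 constitutive core subunits, which enter the particle in equal numbers, spanned 7.11-fold in vehicle libraries, from Psma2 at 28.0 ± 1.9 TPM (SD, n = 3) to Psma7 at 199 ± 13. In BRL libraries the same genes were the lowest and the highest, and the span was 7.32-fold. The low end rests on Psma2, whose annotated transcripts had a mean length of 2911 bases, against 752 to 1055 for the other constitutive α subunits. In CPM, which leaves length out, the lowest of the 14 in vehicle was Psmb5 (mean 25.76) and not Psma2 (48.13). Psmb5 was also the next lowest in TPM. The part of length in the low TPM of Psma2 was not tested. The 17 subunits of the 19S particle spanned 2.63-fold in vehicle, from Psmd14 at 49.1 to Psmc6 at 129 TPM. Psmb5 was the lowest β subunit, at 50.1 ± 5.8 TPM in vehicle and 95.7 ± 32 in BRL libraries, and Psmb4 the highest, at 178 and 242 TPM. Among the β subunits, the distance from lowest to highest was 3.55-fold in vehicle and 2.53-fold in BRL libraries. Neighbours in the order of levels often overlapped in their libraries: in vehicle, Psmb1 (173 ± 7.5 TPM) and Psmb4 (178 ± 4.7) did not differ beyond their SD. Of the constitutive and immunoproteasome core genes, only Psmb9 did not have its highest TPM in BRL replicate 1, the library with the low mitochondrial share.

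**Figure D3:**
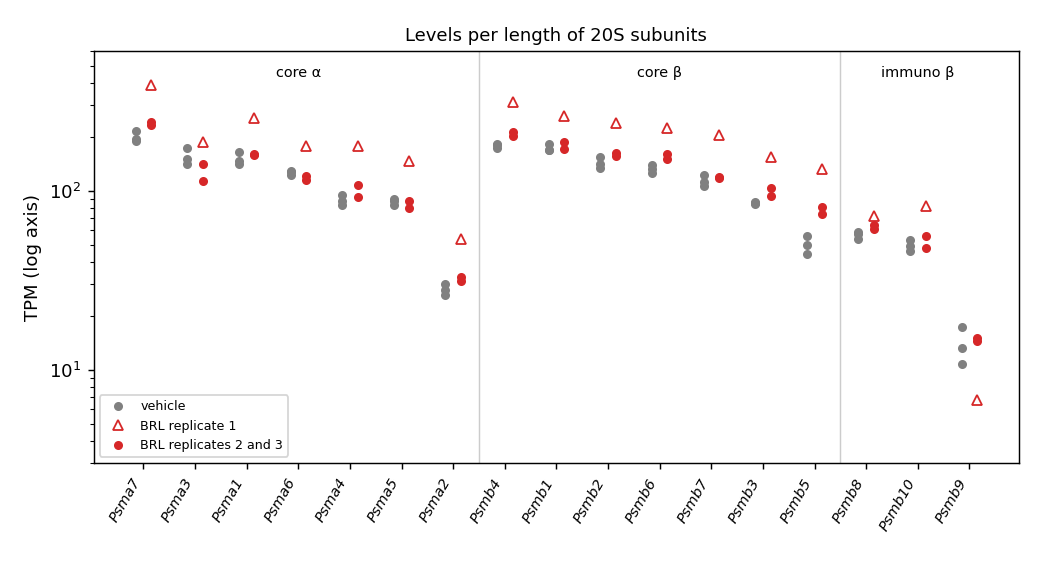
Level of the 14 constitutive core subunits and the 3 immunoproteasome subunits in TPM on a log axis, in vehicle libraries (grey), BRL replicates 2 and 3 (red) and BRL replicate 1 (open triangles). Psma2 and Psmb5 are the lowest constitutive subunits in vehicle; Psmb8 and Psmb10 lie near the level of Psmb5 and Psmb9 lies lowest.

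Ratios within a library leave library scaling out of the comparison. Psmb8 over Psmb5 was 0.965, 1.14 and 1.32 in vehicle libraries and 0.549, 0.872 and 0.759 in BRL libraries. The groups did not overlap: the inducible β5 transcript was near the level of the constitutive one in vehicle and below it in BRL libraries, with means of 1.14 ± 0.18 and 0.727 ± 0.164 (SD, n = 3). Psmb8 itself was at 56.6 ± 2.4 TPM in vehicle and 66.2 ± 5.7 in BRL libraries, and Psmb5 at 50.1 ± 5.8 and 95.7 ± 32. The lower ratio thus went with more Psmb5 and not with less Psmb8, and is no result apart from the call of Psmb5. An exact two-sided permutation test gave p = 0.1, the smallest that 3 against 3 libraries allow. Psmb8 counts were not whole in 4 libraries and its exons overlap Gm20496 on the other strand, so its reads may be shared. Psmb10 over Psmb7 was 0.437 ± 0.055 and 0.423 ± 0.039 (exact p = 0.6), and Psmb9 over Psmb6 was 0.104 ± 0.024 and 0.0735 ± 0.0381 (exact p = 0.5); both pairs overlapped between groups. The activator ratios Psme1/Psme3 and Psme2/Psme3 were tested as well (exact p = 0.2 for each). Adjusted over these 5 ratios, the exact p of Psmb8 over Psmb5 was 0.333, and none can pass the threshold of 0.05 in this design.

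**Figure D4:**
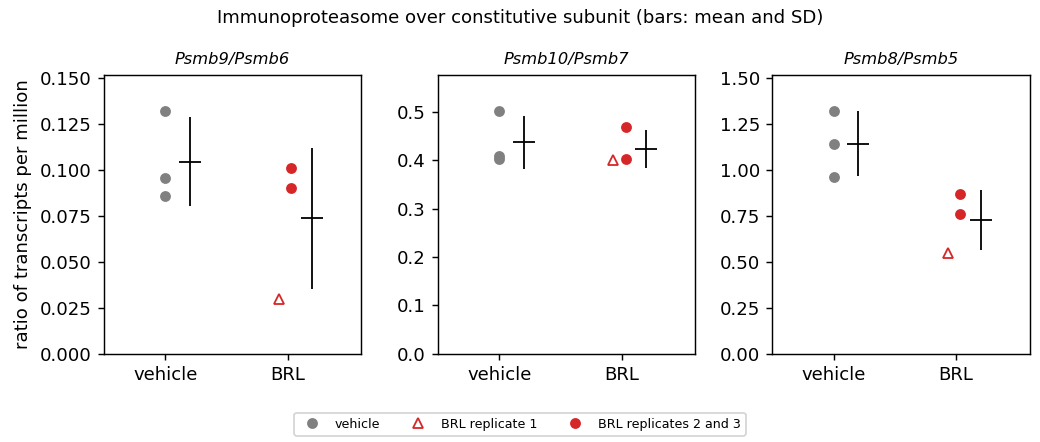
Ratio of each immunoproteasome subunit to its constitutive counterpart in TPM, per library, with the mean and SD of each group beside the points (triangles: BRL replicate 1). Psmb8/Psmb5 lies between 0.965 and 1.32 in vehicle and between 0.549 and 0.872 in BRL libraries; the other ratios overlap.

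The 6 ATPases of the 19S base, which unfold substrates and thread them into the core, had a median log2 fold change of 0.30. Of them 2 rose, where 1.01% of all genes rose, and 5 were higher at an unadjusted p under 0.05, against 11.6%. Psmc5 (ENSMUSG00000020708), the Rpt6 ATPase, measured 43.9, 44.9 and 45.4 CPM in vehicle and 80.6, 62.8 and 62.6 CPM in BRL libraries. The vehicle libraries were almost equal and BRL replicate 1 stood above the other BRL libraries. It rose 1.53-fold (log2 0.62 ± 0.12, edgeR adjusted p = 0.0421), and without BRL replicate 1 by 0.49 ± 0.08 (edgeR adjusted p = 0.00110). Psmc4 (ENSMUSG00000030603), the Rpt3 ATPase, measured 75.3, 73.8 and 63.2 CPM in vehicle and 109, 98.4 and 96.4 CPM in BRL libraries. Its groups were apart and its BRL libraries closer together than those of Psmc5; it rose 1.43-fold (log2 0.51 ± 0.11, edgeR adjusted p = 0.0468), and without BRL replicate 1 by 0.47 ± 0.09 (edgeR adjusted p = 0.00241).

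Both ATPase calls lay close to the threshold. Leaving out any other library ended them: the edgeR adjusted p of Psmc5 was 0.169, 0.202 and 0.215 without vehicle replicates 1, 2 and 3, and 0.0664 and 0.0624 without BRL replicates 2 and 3. For Psmc4 the same 5 values were 0.144, 0.197, 0.238, 0.102 and 0.0768. The calls also ended with the trend in length and GC removed (adjusted p of Psmc5 0.0525 and of Psmc4 0.0896), with library totals in place of TMM factors (0.0948 and 0.103) and with limma-voom (0.0516 for both), and that of Psmc4 with libraries thinned to the lowest total (0.0554). Psmc5 was called in 10 and Psmc4 in 9 of the 20 alternative settings, with log2 fold changes from 0.49 to 0.68 and from 0.42 to 0.57. The other ATPase genes, Psmc1, Psmc2, Psmc3 and Psmc6, had log2 fold changes from 0.13 to 0.34, and of these edgeR called Psmc1 without BRL replicate 1.

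Of the 3 other base subunits, Psmd4, a ubiquitin receptor, had the smallest p. It measured 72.2, 63.1 and 65.7 CPM in vehicle and 96.6, 86.2 and 81.7 CPM in BRL libraries, with the groups apart (0.40 ± 0.11, edgeR adjusted p = 0.0863; 0.33 and 0.0139 without BRL replicate 1). The scaffold subunits Psmd1 and Psmd2 had log2 fold changes of 0.14 and 0.31, and Psmd1 was at -0.10 without BRL replicate 1. Calls in this group were 0 with edgeR's quasi-likelihood test (2 higher at an unadjusted p under 0.05, against 11.6% of all genes) and 0 with DESeq2. The exact test called 1, Psmd4, where 3.47% of all genes rose. The 8 lid subunits had a median of 0.27. For these edgeR called 0, with 4 higher at an unadjusted p under 0.05, against 11.6% of all genes, and DESeq2 and the exact test called 0. Psmd13, a structural lid subunit, measured 55.8, 43.8 and 52.3 CPM in vehicle and 93.4, 62.6 and 64.8 CPM in BRL libraries. BRL replicate 1 set much of its value (0.54 ± 0.17, edgeR adjusted p = 0.125), which was 0.34 with an adjusted p of 0.0269 without that library. Its exons overlap Sirt3 on the other strand, and reads of the pair are separable only if strand was used in counting, on which the sources used here are silent. The deubiquitinase of the lid, Psmd14, was at 0.29 (edgeR adjusted p = 0.261).

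The 7 assembly chaperones, which build the core and the base and are not part of the finished particle, had a median of 0.32. The edgeR quasi-likelihood test called 0, with 3 higher at an unadjusted p under 0.05, against 11.6% of all genes. DESeq2 and the exact test also called 0, as did edgeR without BRL replicate 1. Psmg3, a chaperone of the α ring, measured 8.30, 9.86 and 7.09 CPM in vehicle and 15.4, 13.2 and 9.41 CPM in BRL libraries; the lowest BRL library lay inside the vehicle range (0.59 ± 0.23, edgeR adjusted p = 0.188). Psmg1, another chaperone of the α ring, measured 32.1, 31.3 and 30.6 CPM in vehicle and 39.0, 35.8 and 38.5 CPM in BRL libraries, with the groups apart by a small margin (0.27 ± 0.10, edgeR adjusted p = 0.170). Psmd9, a chaperone of the ATPase ring, measured 25.6, 26.9 and 28.0 CPM in vehicle and 39.2, 34.5 and 28.2 CPM in BRL libraries (0.34 ± 0.14, edgeR adjusted p = 0.204), with its lowest BRL library only just above the vehicle range. Per length, the assembly genes were low, from Psmd9 at 16.0 to Psmg1 at 50.7 TPM in vehicle libraries.

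The activators, which open the core in place of the 19S particle, were divided. Psme3 (PA28γ), found in the nucleus, measured 99.8, 90.6 and 88.4 CPM in vehicle and 116, 114 and 107 CPM in BRL libraries (0.28 ± 0.10, edgeR adjusted p = 0.146; 0.26 and 0.0340 without BRL replicate 1). Psme1 and Psme2, the interferon-inducible PA28 subunits, had log2 fold changes of 0.16 and 0.09 and did not pass with or without that library. Psme4 (PA200), linked to histone degradation, measured 143, 143 and 147 CPM in vehicle and 211, 107 and 115 CPM in BRL libraries. BRL replicate 1 was above and BRL replicates 2 and 3 were below every vehicle library, so the fitted value was 0.00 ± 0.23 (edgeR adjusted p = 0.997). Without BRL replicate 1 the gene fell by 0.37 ± 0.07 on the log2 scale (edgeR adjusted p = 0.00273), the only member called lower in any setting run. Its log2 distance between BRL replicate 1 and the mean of replicates 2 and 3, 0.92, was the highest of the members, and that of Psmb9, -1.22, was the lowest. Over the 47 members this distance had a Spearman correlation of 0.10 with transcript length, and over 11749 genes with a length it was 0.24. Length was the plain mean over a gene's annotated transcripts, short ones included, and was not weighted by expression (1433 bases for Psme4). How the distance goes with the length of the transcripts expressed was not tested. Genes in a library share its depth and scaling, so the correlations are a description. The inhibitor Psmf1 (PI31) measured 48.4, 45.7 and 41.3 CPM in vehicle and 47.3, 44.5 and 45.5 CPM in BRL libraries, groups that overlap (0.02 ± 0.10, edgeR adjusted p = 0.940).

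The remaining members complete the count. Psmc3ip, the gene that meets the rule by name only, measured 11.7, 19.9 and 16.0 CPM in vehicle and 20.6, 24.5 and 21.5 CPM in BRL libraries (0.48 ± 0.19, edgeR adjusted p = 0.189). Without it, 3 of 46 members rose and the median was 0.27. Below the filter on low counts were Psma8, a testis subunit, with 0 counts in all 6 libraries, which allows up to 0.360 to 0.676 CPM per library (3 counts, for counting error only), and Psmb11, the thymus β5 subunit, with 1.01 to 6.36 counts. Psme2b was also listed at 0 in all 6 libraries and below the filter. It matches Psme2 over 794 bases, and Psme2 was assigned 166 to 319 counts, so no limit is given for Psme2b, whose reads could have been counted under Psme2. The tested members had at least 21 counts in every library, so none entered the test through 1 group alone. Counts that are not whole, which mark reads divided among loci, occurred in 15 of the 50 genes, among them Psma3, Psma4, Psmb8, Psmb9, Psmc1, Psmc3ip and Psmd13. Of these, the 14 tested had a median log2 fold change of 0.25, and the 33 tested genes with whole counts had 0.29. Exons of Psmb7, Psmb8, Psmb9, Psmc3ip and Psmd9 overlap Nek6, Gm20496, Tap1, Mlx and Gm26745 on the other strand. Those of Psmg3 overlap Gm26938 on the same strand, so reads of these pairs may be shared. Divided counts were seen for Psmb8, Psmb9 and Psmc3ip, while those of Psmb7, Psmd9 and Psmg3 were whole in every library. Exons of some other members overlap further genes.

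Genes that work with the proteasome were described by lists. Of 11 partner proteins, 1 rose, where 1.01% of all genes rose. That gene was Adrm1, the ubiquitin receptor Rpn13 of the 19S base, which its symbol keeps outside the Psm names. It measured 70.9, 70.3 and 69.9 CPM in vehicle and 117, 114 and 96.2 CPM in BRL libraries (0.63 ± 0.11, edgeR adjusted p = 0.0218; 0.58 without BRL replicate 1). Pomp, the maturation factor of the core, was at 0.51 ± 0.13 (edgeR adjusted p = 0.0777), and the list's median was 0.12. Among the genes for ubiquitin and its activating enzymes, Rps27a, which encodes ubiquitin fused to a ribosomal protein, rose from 29.9 ± 1.9 CPM in vehicle to 46.1 ± 4.3 in BRL libraries (SD, n = 3; log2 0.63 ± 0.12, edgeR adjusted p = 0.0328). Its counts were not whole in any library.

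The 12 shuttle factors and p97 genes, which bring substrates to the proteasome, had a median of 0.15, and edgeR called 0 in either direction, with 1 higher at an unadjusted p under 0.05; DESeq2 and the exact test called 0. Ubqln4, a shuttle factor, had the smallest p (0.24 ± 0.10, edgeR adjusted p = 0.193). Of 12 regulators of proteasome genes edgeR's quasi-likelihood test called 0, with 2 higher and 1 lower at an unadjusted p under 0.05. DESeq2 called Mafk higher, and the exact test called Mafk higher and Nfe2l3 lower. Mafk, a small MAF protein that pairs with NFE2L1 and NFE2L2 on the antioxidant response element, measured 92.4, 85.6 and 79.9 CPM in vehicle and 117, 144 and 109 CPM in BRL libraries (0.52 ± 0.13, edgeR adjusted p = 0.0705). Nfe2l3, a relative of NFE2L1, was near the floor at 1.97 ± 0.23 CPM in vehicle and 0.656 ± 0.122 in BRL libraries, at most 11 counts in a library (-1.56 ± 0.39, edgeR adjusted p = 0.0706). The transcripts of Nfe2l1 and Nfe2l2 were at 0.17 ± 0.12 and 0.31 ± 0.13 (edgeR adjusted p = 0.449 and 0.214). Without BRL replicate 1, where 10.3% of all genes rose, Nfe2l2 rose by 0.42 (edgeR adjusted p = 0.00467). Nfe2l1 and Nfe2l2 are named here outside the rule for named genes, after their values had been seen.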

How the data were processed

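RNA-seq libraries were made from total RNA, per the labels' protocols, and the sources used here do not say whether strand was kept. The authors' sample files hold RSEM expected counts per gene and a fraction per gene that sums to 1 in each library, and the deposited series table holds log2 values, used for 1 alternative only. Per the submitters' processing notes, the build was NCBIM37 and reads passed through cutadapt, Bowtie, RSEM 1.17 and edgeR. Symbols were matched for 88.4% of gene identifiers; 49 members were matched by gene identifier and Psmb9 by its transcripts.

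After rounding, the expected counts entered edgeR 4.0.16 under R 4.3.3: filterByExpr with a minimum count of 10, TMM factors, and a quasi-likelihood F-test on group alone, with Benjamini-Hochberg adjustment over 12046 genes and a threshold of 0.05. The test was first tried on simulated data. Alternatives used DESeq2 1.42.0, limma 3.58.1, edgeR's exact test, other scalings and filters, and leaving out each library. BLAST 2.17.0 was used to find near-identical copies of members (97% identity, 100 bases or more). Values that were not whole (tolerance 0.005) made up 13.2% to 15.6% of each library. Promoter sequences come from RefSeq. Chi-square per degree of freedom was 1.68 to 3.95 between vehicle libraries.

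Values in every library are given for members past the threshold, the catalytic and immunoproteasome subunits, the member of smallest p in each subgroup, and the 3 of largest change in each direction; of each related list, members past the threshold and that of smallest p. Members and lists were chosen with earlier results of these data known. Some genes of the related lists are not reported here.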

Additional observations from a re-analysis of the deposited data

How the results depend on the processing

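Across 20 alternative settings the median log2 fold change of the tested members kept its direction, from 0.21 to 0.31. The number of members called higher was 3 with all 6 libraries and moved with the test: 5 with DESeq2, 7 with edgeR's exact test, and 1 each with limma-voom and with library totals in place of TMM factors. Leaving out 1 library gave between 0 and 16 members called higher and between 0 and 1 called lower. Fewer samples were fitted there, and the highest counts came without BRL replicate 1, where Psme4 was at -0.37; without BRL replicate 2 it was at 0.18. Same-numbered libraries did not deviate together (r = 0.104, -0.019 and -0.0181), so the numbers were not taken as pairs. With the replicate block 1 member was called higher (the edgeR adjusted p of Psmc4 was 0.0683 and of Psmc5 0.0690), and over all genes 64 rose and 151 fell. The trend with length and GC used plain means over a gene's annotated transcripts. With the block and this trend removed, 1 member was also called higher, and over all genes 90 rose and 216 fell. The cause of these differences was not tested. A gene with 0 counts and no near-identical copy is limited only to below 3 counts per library.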
